A study of Homo sapiens with 27 samples.

Results

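The genes described here are 10 classical targets of the tumour suppressor p53, read in HL-60, an established human promyelocytic leukaemia line that is known to lack p53. The members were chosen by name, and all 10 were found among the 58233 genes of the deposited tables: CDKN1A, MDM2, BTG2, AEN, CCNG1, TIGAR, SESN1, GDF15, PHLDA3 and FAS. The series comprised 27 HL-60 libraries, each the only one of its group, so each ratio below compares libraries, not conditions, and carries no p-value. For RNA, there was 1 library of total and 1 of nascent (newly made) RNA from cells without treatment, and 1 nascent library each for DMSO (the vehicle), DRB at 100 µM and actinomycin D (ActD) at 0.8 µM. DRB inhibits the kinase that releases RNA polymerase II into elongation, and ActD intercalates into DNA and stops transcription. The sources used here do not give the time of treatment. Chromatin immunoprecipitation (ChIP) with antibodies to H2A.Z, a variant of histone H2A found at promoters, and to acetylated H2A.Z (acH2A.Z) covered DMSO, DRB, ActD and the groups labelled siMyc and siNTC, for which no RNA library was analysed here. RNA immunoprecipitation (RIP) with antibodies to H2A.Z, acH2A.Z and the acetyltransferase Tip60 used untreated cells.

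p53 is a transcription factor that binds response elements in its target genes after DNA damage or nucleolar stress. Its targets halt the cell cycle (CDKN1A, BTG2, CCNG1), promote cell death (FAS, AEN, PHLDA3), adjust metabolism and redox balance (TIGAR, SESN1), signal to other cells (GDF15), or, in the case of MDM2, mark p53 itself for degradation in a negative feedback loop. In cells that have p53, ActD at low dose is widely used to activate it, because inhibition of ribosome production frees p53 from MDM2. Whether the 0.8 µM used here would act in that way was not tested. Because HL-60 is known to lack p53, these libraries show how the same genes read out without it.

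Genomic reads over the members were present in the input DNA of the ChIP experiments. Summed over the inputs of DMSO, DRB and ActD, the members had between 17.3 (PHLDA3) and 132 (MDM2) counts. Of 12182 protein-coding genes with a model of at least 1500 bases, the median summed to 49 counts. Input reads were few, and they show that each of the 10 genes was present in the genomic DNA.

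Promoter windows of selected members are printed first. RefSeq windows (GRCh38.p14, from 250 bases before to 50 bases after an annotated start) were found for 9 of the 10 members, in 17 windows. PHLDA3 was not matched. Each window was searched on both strands for the p53 decamer (10 bases, no mismatch) and for the p53 response element, which is a pair of decamers side by side (20 bases, at most 2 mismatches). An element can contain a decamer match, so the searches overlap. The decamer was found in 3 of the 17 windows (1 each of AEN, SESN1 and FAS), against 6.63% of all 35116 windows. The element was found in 4 of the 17 windows, in 3 members (MDM2, AEN and FAS), against 0.649% of all windows. In MDM2 the same match lay in the overlapping windows of its internal starts, from which p53-driven MDM2 transcripts are known to begin. The members are classical p53 targets, and the element search was chosen after these windows had been seen. The shares are therefore description and not a test of enrichment. Matches are in capitals in the 3 printed windows with an element. The BTG2 window, with none, is shown because BTG2 gave the highest ratio under ActD.
MDM2 internal start, chr12:68808767-68809066, plus strand, match from base -94: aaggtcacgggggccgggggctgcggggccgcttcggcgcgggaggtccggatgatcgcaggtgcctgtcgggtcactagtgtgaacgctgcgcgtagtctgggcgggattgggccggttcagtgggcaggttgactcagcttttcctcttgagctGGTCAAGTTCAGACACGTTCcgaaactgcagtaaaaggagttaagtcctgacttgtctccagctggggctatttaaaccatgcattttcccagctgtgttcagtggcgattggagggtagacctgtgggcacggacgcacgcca
AEN, chr15:88621090-88621389, plus strand, match from base -34: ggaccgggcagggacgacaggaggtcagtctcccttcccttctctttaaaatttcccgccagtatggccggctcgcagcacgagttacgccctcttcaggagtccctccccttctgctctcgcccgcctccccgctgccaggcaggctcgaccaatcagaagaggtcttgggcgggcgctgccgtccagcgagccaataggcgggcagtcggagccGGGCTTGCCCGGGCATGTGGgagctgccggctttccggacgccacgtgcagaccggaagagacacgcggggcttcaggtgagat
FAS downstream start, chr10:88991181-88991480, plus strand, match from base -122: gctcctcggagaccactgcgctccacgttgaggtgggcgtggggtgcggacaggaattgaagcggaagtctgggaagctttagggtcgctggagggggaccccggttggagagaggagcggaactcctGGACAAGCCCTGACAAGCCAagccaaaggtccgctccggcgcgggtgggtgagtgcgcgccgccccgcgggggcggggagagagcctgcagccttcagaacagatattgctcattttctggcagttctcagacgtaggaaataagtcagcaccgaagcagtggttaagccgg
BTG2, chr1:203305269-203305568, plus strand, no match: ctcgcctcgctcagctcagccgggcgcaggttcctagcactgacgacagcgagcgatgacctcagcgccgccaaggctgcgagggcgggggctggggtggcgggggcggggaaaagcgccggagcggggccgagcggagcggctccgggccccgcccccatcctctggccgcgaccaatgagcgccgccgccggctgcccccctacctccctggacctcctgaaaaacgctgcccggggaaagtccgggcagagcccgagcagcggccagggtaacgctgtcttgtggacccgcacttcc
Positions give the first base of the match relative to the start site. The members' windows had a median GC content of 63% against 58.7% over all windows, and a median of 25 CpG dinucleotides against 14. A match describes the letters only, and a missing one says nothing about elements elsewhere in the gene.

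The RNA libraries held 12600067 to 25167597 expected counts, and a count of 0 allowed a level of up to 0.119 to 0.238 CPM (counts scaled to a common library total), taking 3 counts as the floor. Mitochondrial genes took 45.9%, 66.5% and 56.9% of counts in nascent RNA under DMSO, DRB and ActD, against 0.560% in the nascent and 0.649% in the total RNA of cells without treatment, so the untreated libraries stood apart and every CPM value depends on these shares. Granulocyte precursor markers were present, with 9 or 10 of 10 above 0 and a summed level of 1173 to 2272 CPM; ELANE, a defining granule protease, was at 0 in 4 of the 5 libraries. Lymphoid markers (7 listed) summed to 0 to 5.99 CPM, erythroid markers (6 listed, with HBA1, HBA2 and HBB at 0 throughout) to 0 to 2.46, and epithelial and fibroblast markers (7 listed, with EPCAM at 0 throughout) to 0 to 3.85. Most members overlap a neighbour, among them CDKN1A (DINOL), MDM2 (the gene named CPM), AEN (LINC01586), CCNG1 (NUDCD2), TIGAR (RPS15P7), SESN1 (ARMC2) and FAS (ACTA2). The sources used here do not say whether counting used the strand. In bulk RNA, fewer cells making a transcript and less of it per cell cannot be told apart.

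Before any treatment, the 10 genes ranged from abundant to undetected, and the arrest gene CDKN1A was under the floor in total RNA. MDM2, the ubiquitin ligase that degrades p53, was the most abundant, with 157 CPM in total RNA and 65.2 in untreated nascent RNA. CCNG1 (cyclin G1), AEN (a nuclease of apoptosis) and FAS (a death receptor) followed in total RNA with 19.6, 14.7 and 11.6 CPM. TIGAR, a phosphatase that diverts sugar from glycolysis, had 5.99 CPM, SESN1 (sestrin 1, a stress-induced inhibitor of mTORC1 signalling) 5.60 CPM and BTG2, an antiproliferative cofactor of mRNA decay, 3.31 CPM. CDKN1A, which encodes the cyclin-dependent kinase inhibitor p21, had 1 count in total RNA and 24 in untreated nascent RNA (0.954 CPM). GDF15, a secreted stress cytokine, and PHLDA3, an inhibitor of Akt, had 0 counts in total RNA and 2 in untreated nascent RNA, below the floor.

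Compared per transcript length as deposited TPM, MDM2 stood first in total RNA with 20.2 TPM, ahead of CCNG1 with 4.60, FAS with 1.55 and AEN with 0.95. TIGAR (0.48), BTG2 (0.47) and SESN1 (0.35) could not be separated by their counting intervals, and CDKN1A was last of those detected with 0.01. In nascent RNA under DMSO the order was MDM2 with 43.2 TPM, CCNG1 with 24.9 and AEN with 6.76, then FAS (3.67) and TIGAR (2.75), which overlapped, and BTG2 (1.14) and SESN1 (0.76), which also overlapped. Under ActD the order changed: CCNG1 led with 60.1 TPM, BTG2 was next with 11.8, and MDM2 came after them with 6.32. AEN (1.89) and SESN1 (1.79) overlapped, FAS stood at 0.39 and TIGAR was listed at 0. Under DRB MDM2 stood first with 12.2 TPM, AEN (3.29) and CCNG1 (2.09) overlapped, and FAS, SESN1, TIGAR and BTG2 lay between 0.15 and 0.48.

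**Figure D1:**
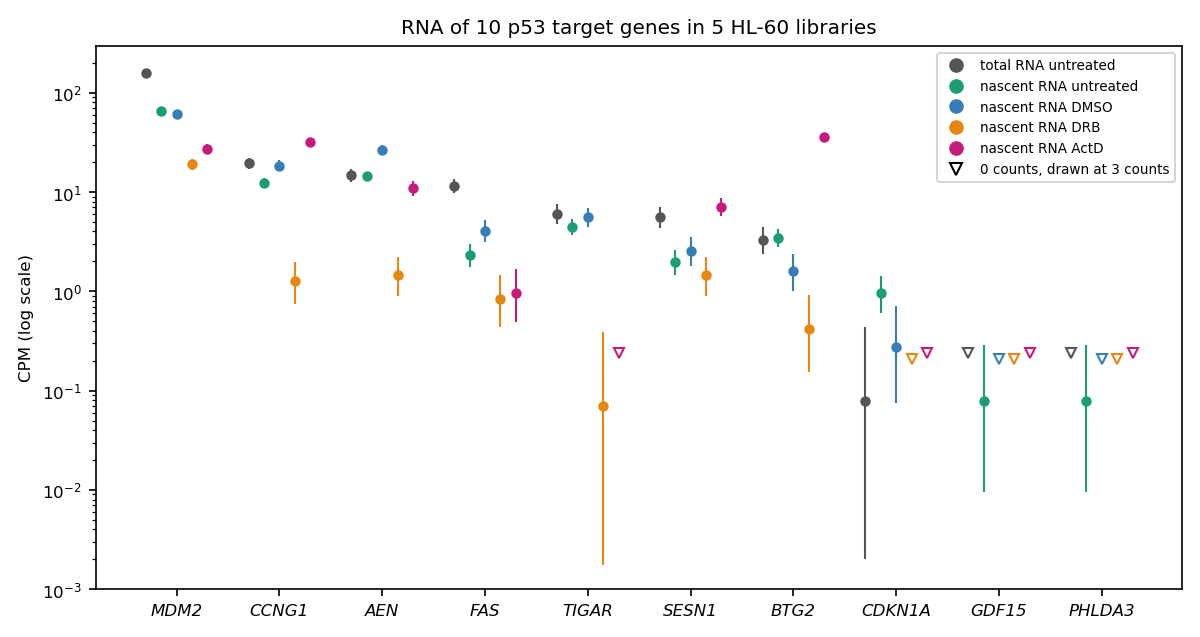
Level of each gene in 5 HL-60 libraries, in CPM on a log axis; points are single libraries, vertical lines are exact 95% intervals for counting error, and open triangles mark 0 counts, drawn at the floor of 3 counts. BTG2 is highest under ActD at 35.4 CPM, TIGAR falls from 5.55 CPM under DMSO to 1 count under DRB and 0 under ActD, and GDF15 and PHLDA3 lie under the floor in all 5 libraries.

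For the comparisons, each ratio is the log2 ratio of 2 levels after 1 CPM was added to both. A gene is called higher or lower, or is said to have risen or fallen, at 2-fold or more. CPM is a share of the counts of a library, so these words describe shares. Whether the amount of RNA per cell rose or fell cannot be read from CPM. Brackets give the 95% interval of the count ratio with nothing added, which covers counting error only and can lie outside the ratio for low genes. A gene entered a comparison when its libraries averaged 1 CPM or more and summed to 20 counts or more. In each comparison 7 of the 10 members entered; CDKN1A, GDF15 and PHLDA3 did not.

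The first comparison, nascent against total RNA in cells without treatment, asked which targets were represented in new RNA as in the standing pool. Of the 7 members 0 were higher and 3 lower in nascent RNA, beside 9.5% and 17.8% of the 13988 genes tested, and their median of -0.61 compares with -0.34 for all genes. FAS had 11.6 CPM in total and 2.30 in nascent RNA, a ratio of -1.93 [-2.80, -1.88]. MDM2 (157 and 65.2 CPM) stood at -1.26 [-1.37, -1.18] and SESN1 (5.60 and 1.99 CPM) at -1.14 [-2.05, -0.95]. On the CPM scale these transcripts of the death receptor, the p53 ligase and the sestrin were thus less represented among new RNA than in the pool. After centring on the median gene FAS alone remained lower, at -1.59, with MDM2 at -0.92 and SESN1 at -0.80. BTG2 (0.05), AEN (-0.02), CCNG1 (-0.61) and TIGAR (-0.35) stayed within 2-fold on the CPM scale. On deposited TPM the members lower were MDM2 (-2.12) and CCNG1 (-1.16), while FAS (-0.96) and SESN1 (-0.30) lay within 2-fold. Which members were lower thus depends on the scale. CDKN1A had 24 counts in the nascent and 1 in the total library, below the entry filter.

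Under the vehicle the measured members were within 2-fold of their untreated levels on the CPM scale. Nascent RNA under DMSO and from untreated cells differed by -0.78 (BTG2) to 0.84 (AEN) for the 7 members, with 0 higher and 0 lower, beside 23.3% and 24.5% of 13714 genes. BTG2 had 3.46 CPM untreated and 1.59 under DMSO, and AEN 14.4 and 26.7. BTG2 was lower by more than 2-fold with RNA polymerase III, ribosomal RNA and mitochondrial genes removed (-1.13) and with 0.25 CPM added in place of 1 (-1.01). On deposited TPM 5 of the 7 were higher under DMSO, with a median of 1.83.

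Under DRB most of the measured targets were lower than under DMSO and none was higher. Of the 7 members 5 were lower, beside 54.7% of the 12121 genes tested, and 0 were higher, beside 9.1%, with a median of -1.65 against -1.19 for all genes. After centring on the median gene 3 of the 7 were lower (26.4% of all genes) and 0 higher (24.9%), with a median of -0.46. With 7 genes, these shares are not read as different from those of genes at large.

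By role, the feedback gene MDM2 had 61.5 CPM under DMSO and 18.95 under DRB, a ratio of -1.65 [-1.90, -1.50], and -0.46 after centring. Among the cell cycle genes, CCNG1 went from 18.4 to 1.26 CPM, a ratio of -3.11 [-4.65, -3.19], and was also lower after centring, at -1.92. BTG2, with 23 counts under DMSO and 6 under DRB, stood at -0.87 [-3.52, -0.59] and so stayed within 2-fold on the scale with 1 CPM added. CDKN1A had 4 counts under DMSO and 0 under DRB, which gives no ratio above the floor. Of the death genes, AEN dropped from 26.7 to 1.46 CPM, a ratio of -3.49 [-4.90, -3.56], or -2.31 after centring. FAS went from 4.09 to 0.837 CPM at -1.47 [-3.32, -1.38], which centring took to -0.29. For the metabolic genes, TIGAR had 80 counts under DMSO and 1 under DRB, with a ratio of -2.61 [-11.63, -3.79], and SESN1 had 37 and 21 counts at -0.53 [-1.66, 0.00]. After centring CCNG1, AEN and TIGAR were lower by more than 2-fold and the other 4 lay within it. On deposited TPM AEN stood at -0.86, within 2-fold, while MDM2 was at -1.74 and FAS at -1.66.

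Under ActD the measured targets lay on both sides of DMSO, as genes at large did. BTG2 and SESN1 were higher than under DMSO, CCNG1 was above it by less than 2-fold, and MDM2, AEN, FAS and TIGAR were lower. Of the 7 members 2 were higher, beside 15.4% of 12121 genes, and 4 lower, beside 50.1%, with a median of -1.15 against -1.01 for all genes. After centring 3 were higher (30.1% of all genes) and 1 lower (31.6%), with a median of -0.14. With 7 genes, these shares too are not read as different from those of genes at large. The DMSO library is the same as in the comparison with DRB, so the comparisons are not independent.

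BTG2 had 23 counts (1.59 CPM) under DMSO and 446 counts (35.4 CPM) under ActD, a ratio of 3.81 [3.87, 5.15], the highest of the members. The untreated levels were 3.46 CPM in nascent and 3.31 in total RNA, so the ActD library was above all 4 others. SESN1 had 37 counts (2.56 CPM) under DMSO and 89 (7.06 CPM) under ActD, a ratio of 1.18 [0.89, 2.06], and was at 5.60 CPM in total RNA. CCNG1 went from 266 counts (18.4 CPM) to 404 (32.1 CPM), a ratio of 0.77 [0.57, 1.03], or 1.77 after centring and 1.17 with RNA polymerase III, ribosomal RNA and mitochondrial genes removed, so its call depends on the scale. On deposited TPM CCNG1 stood at 1.24, SESN1 at 0.66, within 2-fold, and BTG2 at 2.58. An antiproliferative cofactor, a sestrin and a cyclin were thus the members above their DMSO level.

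The p53 ligase did not follow them. MDM2 went from 61.5 to 27.2 CPM, a ratio of -1.15 [-1.361, -0.996], which centring took to -0.14, and stood at -2.59 on deposited TPM. AEN dropped from 26.7 to 10.9 CPM at -1.22 [-1.59, -1.01], or -0.21 after centring. FAS had 59 counts under DMSO and 12 under ActD at -1.38 [-3.13, -1.19], or -0.37 after centring. TIGAR had 80 counts under DMSO and 0 under ActD and was at least 23.3-fold lower, taking the floor of 3 counts; it was lower on all 3 scales. CDKN1A, the target most used as a readout of p53, had 4 counts under DMSO and 0 under ActD, while GDF15 and PHLDA3 had 0 in both. The windows with a p53 element printed above belong to MDM2, AEN and FAS, which lay below DMSO under ActD. So did the median of all genes, at -1.01, and TIGAR, whose window has no match. The BTG2 window has none, and SESN1, which was higher under ActD (1.18), has a decamer match in 1 window. Nothing about binding is drawn from this.

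**Figure D2:**
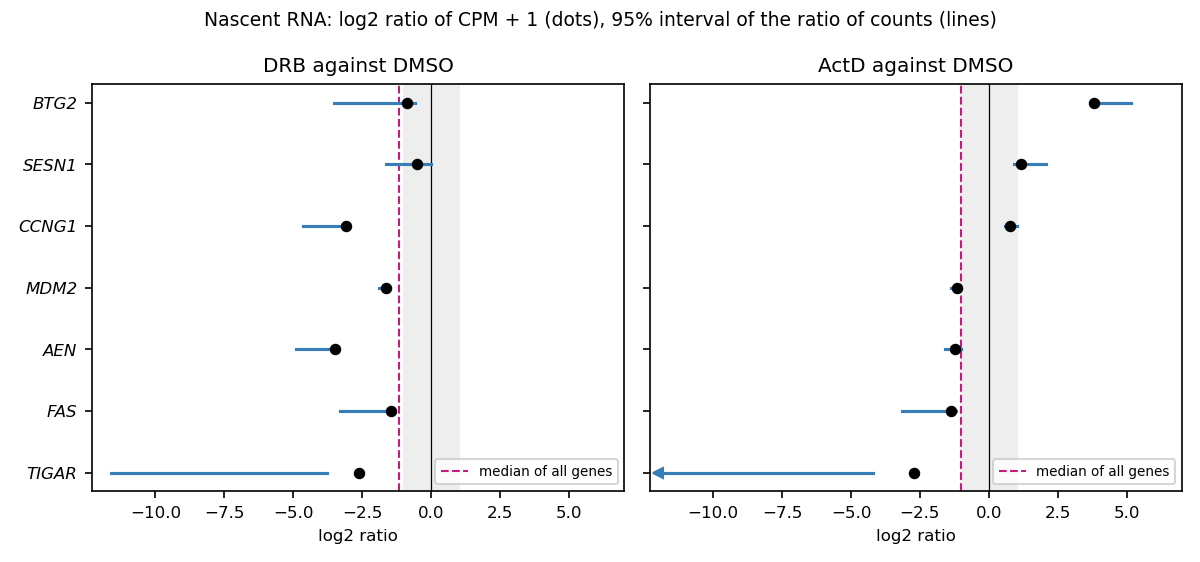
Log2 ratio of CPM + 1 for the 7 measured genes, DRB against DMSO (left) and ActD against DMSO (right), 1 library each; blue lines are 95% counting intervals that leave out the added CPM, the grey band is 2-fold, the dashed line is the median of all 12121 genes, and an arrow marks an interval open at 0 counts. BTG2 (3.81) and SESN1 (1.18) are right of the band under ActD, and no gene is right of it under DRB.

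Set directly against each other, 4 of these transcripts were at higher levels under ActD than under DRB. Of the 7 members 4 were higher under ActD, beside 32.9% of 12121 genes, and 0 lower, beside 26.9%, with a median of 1.71 against 0.10 for all genes. After centring the counts were again 4 and 0, beside 31.4% and 28.2%. Here as well, shares of 7 genes are not read as different from those of genes at large. BTG2 stood at 4.68 [5.27, 7.86], CCNG1 at 3.87 [4.00, 5.44], AEN at 2.27 [2.22, 3.63] and SESN1 at 1.71 [1.57, 3.03]. MDM2 (0.50), FAS (0.09) and TIGAR (-0.10, from 1 and 0 counts) stayed within 2-fold. On deposited TPM the median was -0.09 and AEN stood at -0.57, where its effective length was 399 bases under DRB and 4846 under ActD.

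The wider p53 network also held genes on both sides, with more lower than higher, as among all genes (shares above). Of 50 other p53 targets 38 were measured. Under DRB 4 of the 38 were higher and 22 lower than under DMSO, with a median of -1.26, and after centring 12 were higher and 13 lower. Under ActD 6 rose and 21 fell, at a median of -1.32, or -1.40 when undetected genes were placed at their bound, and after centring 12 were higher and 17 lower. The 3 highest under ActD were PIDD1, PMAIP1 and RPS27L. PIDD1, a death-domain protein, went from 1.94 to 34.5 CPM (3.59 [3.60, 4.76]). PMAIP1, which encodes the BH3-only protein NOXA, went from 22.6 to 246.7 CPM (3.39 [3.28, 3.62]). RPS27L, a ribosomal protein paralogue that may share reads with RPS27, went from 1.39 to 15.2 CPM (2.77 [2.79, 4.20]). PIDD1 and RPS27L were also lower under DMSO than in untreated nascent RNA, at -4.04 and -1.81, so their ActD levels of 34.5 and 15.2 CPM compare with 47.2 and 7.35 CPM in untreated cells.

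At the other end under ActD were PLCL2, a phospholipase C-like protein, at -4.49 [-9.10, -5.26], the translesion polymerase gene POLH at -4.21 [-6.97, -4.59] and the p53 phosphatase gene PPM1D at -2.95 [-4.16, -2.90]. Under DRB the highest were ORAI3 (2.83), TRIM22 (2.13) and BLOC1S2 (1.62), and the lowest PRKAB1 (-4.61), POLH (-4.03) and DCP1B (-3.39). ORAI3, a calcium channel subunit, had 0.139 CPM under DMSO but 10.3 CPM in untreated nascent RNA, and so was at 7.11 CPM under DRB below the untreated level. POLH fell under both inhibitors. Between ActD and DRB 13 of the 38 were higher and 11 lower (median -0.09), and PMAIP1 had the highest ratio, at 5.86 [5.82, 6.68].

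Of 15 regulators of p53 12 were measured, and their counts stand beside the shares of all genes given above. Under DRB 0 were higher and 7 lower (median -1.31; 3 and 4 after centring). Under ActD 1 was higher and 6 lower (median -0.89; 3 and 4 after centring). KAT5, which encodes Tip60, went from 20.03 CPM under DMSO to 0.488 under DRB and 0.159 under ActD, ratios of -3.82 [-6.69, -4.30] and -4.18 [-10.03, -5.11]. USP7, a deubiquitinase of MDM2 and p53, stood at -3.60 [-4.44, -3.50] under ActD. CDKN2A, which encodes p16 and the MDM2 inhibitor ARF, had 8.73 CPM under DMSO, 22.9 under ActD (1.29 [1.08, 1.70]) and 0 under DRB, at least 41.7-fold lower. The damage kinase gene ATM (0.69) and the checkpoint kinase gene CHEK2 (0.17) stayed within 2-fold under ActD, and ATR stood at -3.06 under DRB.

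BTG2 is also an early response gene with a labile transcript, and it was set beside 26 such genes, itself included, of which 22 were measured. Under ActD 12 of the 22 rose, beside 15.4% of all 12121 genes, and 7 fell, beside 50.1% (median 1.31). Under DRB 1 rose, beside 9.1%, and 16 fell, beside 54.7% (median -2.06). After centring 15 were higher (30.1% of all genes) and 5 lower (31.6%) under ActD, and 3 (24.9%) and 10 (26.4%) under DRB. The transcription factor genes JUN (31.8 to 318.3 CPM, 3.29) and FOSB (2.495 to 68.7 CPM, 4.32) and the stress phosphatase subunit gene PPP1R15A (59.3 to 571 CPM, 3.25) were among those that rose under ActD, while FOS fell from 5.48 CPM to 0. These 4 were picked after their values were seen. BTG2, at 3.81, is one of the 12 that rose. The list was chosen with earlier results of these data known, and a link between it and the BTG2 level was not tested.

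**Figure D3:**
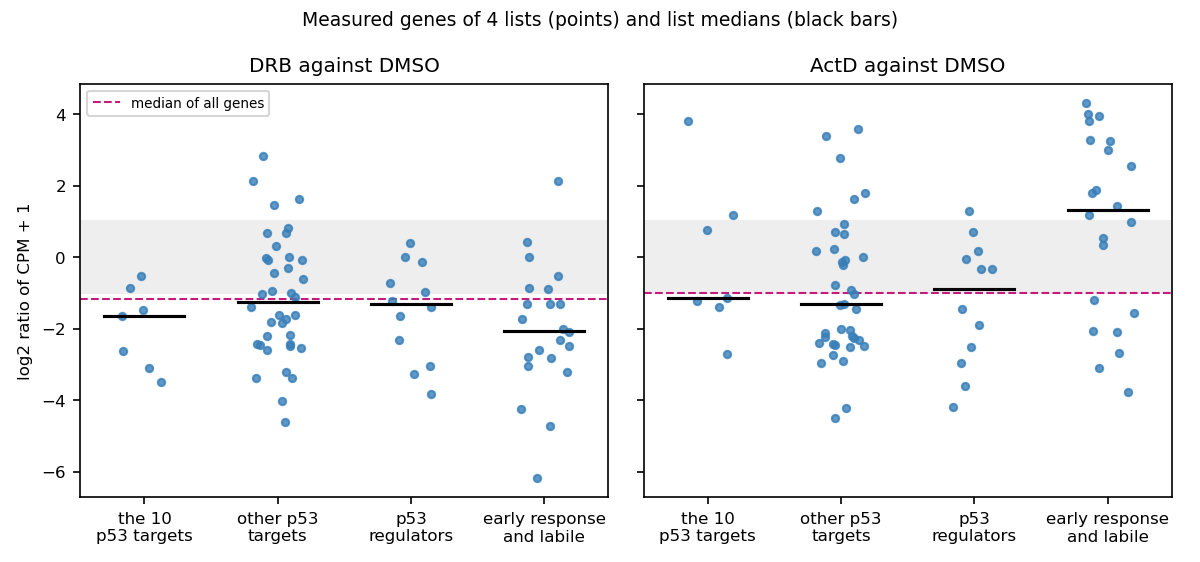
Log2 ratios of CPM + 1 of measured genes (points) and list medians (black bars) for the 10 p53 targets, 50 other p53 targets, 15 p53 regulators and 26 early response and labile transcripts, with the median of all genes dashed and the 2-fold band in grey. Medians of the p53 lists lie between -1.65 and -0.89, and the early response list has medians of -2.06 under DRB and 1.31 under ActD.

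Genes whose levels followed a member most closely over the 5 RNA libraries were found by the distance of log2(CPM + 1), centred on each gene's mean, among 13617 genes. For BTG2 these were SLC25A33 (distance 0.34), TBCC (0.37) and CTC-338M12.4 (0.50). SLC25A33, a mitochondrial carrier, had 5.34, 2.72 and 80.0 CPM under DMSO, DRB and ActD, the same high point under ActD. For CCNG1 they were CLP1 (0.21), KRBOX4 (0.31) and ZNF225 (0.34), for TIGAR HSF2BP (0.12), IMPDH1P8 (0.15) and UBE2F (0.15), and for MDM2 ZNF19 (0.25), HCN3 (0.26) and CLYBL (0.27). With 1 CPM added, a gene of low level can lie near a member although its fold change differs. ZNF19 had 1.59, 0 and 0.238 CPM under DMSO, DRB and ActD, where MDM2 had 61.5, 18.95 and 27.2. CLP1 had 7.90, 0.0697 and 16.3 CPM, where CCNG1 had 18.4, 1.26 and 32.1.

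In chromatin under DMSO, an acH2A.Z peak lay at a start of each of the 7 members with measured RNA. CDKN1A had a peak past its start, and GDF15 and PHLDA3 had none. Peaks are the authors' calls in each library, and a gene counted as having one when a peak lay over it or within 1 kb. Under DMSO 8 of 10 members had an acH2A.Z peak, beside 57.3% of 19970 protein-coding genes; under DRB 9, beside 67.0%; under ActD 7, beside 58.0%; in siNTC cells 8, beside 60.4%; and in siMyc cells 5, beside 38.2%. PHLDA3 had none in any of these lists. Within 1 kb of an annotated start the count was 7 of the 9 members with such a start under DMSO (53.6% of 15811 genes), 8 under DRB (59.3%), 7 under ActD (51.3%), 7 in siNTC (56.2%) and 5 in siMyc (30.6%). Among all genes such a start peak under DMSO was present at 88.1% of those with measured nascent RNA, the share to set beside the 7 measured members, and at 13.4% of the rest. For the same measured genes the share was 92.4% under DRB, 83.1% under ActD, 89.2% in siNTC and 50.7% in siMyc.

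At MDM2 the peak under DMSO lay at chr12:68806492-68809749 with 403.1 normalized tags and covered both its first and its internal starts. It had 584.5 tags under DRB (chr12:68806328-68809518), 295.1 under ActD (chr12:68805975-68809783) and 349.5 in siNTC (chr12:68806320-68809192), and in each of these lists it also covered the internal window printed above in whole. In siMyc the peak held 49.5 tags at chr12:68806321-68807886 and ended before the first start at 68808172. The headers do not state the scale of the tags, so tags here and below are not compared between lists. Ranked by tags within its own list, the MDM2 peak stood at percentile 69.4 under DMSO, 93.5 under DRB and 85.1 under ActD. It stood at 75.9 in siNTC and 89.6 in siMyc. The start peak of BTG2 stood at 62.6 in siNTC and 6.90 in siMyc, and that of AEN at 64.9 and 19.7.

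BTG2 had a start peak in all 5 acH2A.Z lists, with 123.7 tags under DMSO, 142.5 under DRB, 69.1 under ActD, 204.5 in siNTC and 8.96 in siMyc. Under DMSO it spanned chr1:203304486-203306118 across the start at 203305519, and under ActD, where BTG2 RNA was highest, chr1:203304728-203305481, ending before the start. AEN, with its element just before the start, had 177.6, 292.3, 175.2, 225.4 and 10.1 tags in the same order. CCNG1 had a start peak with 590.9 tags under DMSO, 391.0 under DRB, 908.9 under ActD and 43.9 in siNTC, and none in siMyc. TIGAR, whose RNA was at 1 and 0 counts under the inhibitors, kept peaks at its start with 158.4 tags under DRB and 486.2 under ActD, and had none in siMyc. SESN1, the longest member with 110538 bp, had peaks at starts in all 5 lists, and FAS also did. Those at SESN1 overlapped its neighbours ARMC2 or CEP57L1, and those at FAS can overlap its neighbours ACTA2 and FAS-AS1. In siMyc the SESN1 start peak (chr6:109095184-109096235) lay wholly upstream of the start at 109094846 on the minus strand, over CEP57L1. The siMyc peaks of BTG2 (chr1:203304415-203304915) and AEN (chr15:88620497-88620997) also ended before the start.

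CDKN1A, whose RNA was near the floor, had an acH2A.Z peak downstream of its start (36678714) under DMSO at chr6:36680295-36681567 with 136 tags and under DRB at chr6:36679420-36681394 with 107.2 tags, and none under ActD, in siNTC or in siMyc. GDF15, with 0 counts under all treatments, had a peak of 17.7 tags under DRB at chr19:18388553-18389178 and of 254.6 tags in siNTC at chr19:18387891-18389445, both over its 3' part and away from its start at 18386158.

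**Figure D4:**
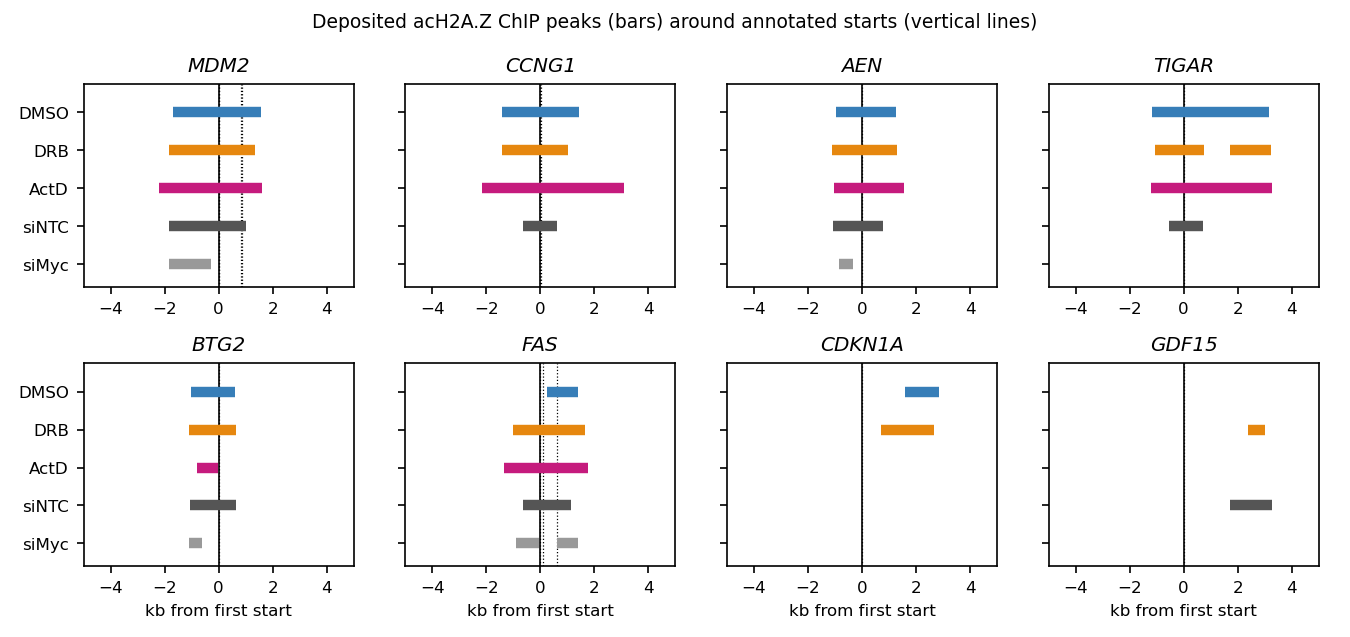
Deposited acH2A.Z peaks (bars) in 5 ChIP libraries around the first annotated start of 8 members, in kb; vertical lines mark annotated starts, and SESN1 and PHLDA3 are not drawn. Bars cross the first start of MDM2 in 4 libraries but not in siMyc, and CDKN1A and GDF15 have bars to the right of the start only.

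Lists for H2A.Z irrespective of acetylation held few of these genes. With that antibody 0 members had a peak under DMSO (6.75% of protein-coding genes) and 0 under DRB (14.8%). Under ActD AEN and SESN1 had one (17.1%), in siNTC SESN1 (14.6%), and in siMyc CCNG1, SESN1 and FAS (22.0%). Every member named here also had such a peak within 1 kb of a start, beside 6.66%, 13.2%, 5.63%, 9.09% and 14.7% of genes in the same order of lists. In siNTC and siMyc the SESN1 peak there lay upstream of the start at 109094846, over its neighbour CEP57L1. The members' H2A.Z peaks held 5.64 to 13 tags, and the lists ranged from 1271 peaks under DMSO to 17888 under ActD. The drop from 8 to 5 members between siNTC and siMyc for acH2A.Z stands beside a drop from 60.4% to 38.2% of all protein-coding genes. These lists held 17353 and 14528 peaks, with median sizes of 1306 and 637 bp. Their median tags were 101.3 and 15.4, on scales that are not stated. The control was also scaled differently in them. The part of these differences in the members' result was not tested.

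RIP peaks, where RNA recovered with each antibody maps, were found at 6 members for H2A.Z (60.6% of protein-coding genes), 6 for acH2A.Z (80.0%) and 9 for Tip60 (79.7%). Within 1 kb of a start they were found at 0 members for H2A.Z (10.2%), 3 for acH2A.Z (36.6%) and 3 for Tip60 (30.6%). SESN1 (110538 bp) and TIGAR (38816 bp) held more than 1 peak in each list, and the median protein-coding gene spanned 24190 bp. AEN (27599 bp) also held several with acH2A.Z and Tip60. MDM2 (42515 bp) and FAS (53010 bp), both longer than TIGAR, held fewer peaks than TIGAR in every list. CDKN1A had a peak in all 3 lists, of which those for H2A.Z (chr6:36680426-36681171, 6.39 tags) and acH2A.Z (chr6:36680078-36680703, 24.3 tags) lay over the same part of the gene as the acH2A.Z ChIP peak under DMSO. The Tip60 peak of CDKN1A, at chr6:36677880-36678380, lay before the start used here, where the divergent transcript DINOL is annotated. MDM2 had a peak with H2A.Z (3.68 tags) and Tip60 (7.31 tags) but not with acH2A.Z, and BTG2 with acH2A.Z alone. GDF15 and PHLDA3, under the floor in RNA, each had peaks with Tip60 alone, of 3.71 to 5.80 tags. These statements hold for the 1 kb window: within 5 kb, CCNG1, GDF15 and PHLDA3 also had an acH2A.Z peak, which made 9 members, and BTG2 a Tip60 peak, which made 10. RIP and the RNA libraries are separate experiments, and the sources used here do not name the control library of the peak calls.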

How the data were processed

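The 8 gene tables (5 RNA, 3 input DNA) and 13 peak lists (10 ChIP, 3 RIP) were used as deposited, and 6 IgG libraries were not analysed here. Per the submitters' processing notes, reads were handled with STAR 2.5.2b, cutadapt, Trim Galore, FastQC and HOMER on GRCh38. Which quantifier and annotation made the counts is not given in the sources used here. The gene tables hold, per the file headers, lengths, expected counts, TPM and FPKM; deposited expected counts were scaled to CPM and rounded for intervals, deposited TPM served for order within a library, and deposited FPKM was not used. Per the file headers, peak lists hold normalized tag counts (a signal of unstated scale), a score and a fold over control, which is a ratio of at least 4. Each deposited peak carries a p-value from the authors' peak finder, at most 0.0001, per the file headers. In 3 lists (H2A.Z siMyc and siNTC, acH2A.Z siMyc) the control was scaled to the immunoprecipitation, in the others the reverse.

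Ratios used CPM plus 1, a mean of at least 1 CPM and 20 summed counts (over DMSO, DRB and ActD for comparisons among these, otherwise over both libraries), and 2-fold calls. Exact binomial 95% intervals, and the floor of 3 counts, cover counting error only, as reads were not marked with molecular identifiers as single molecules. With 1 library per group no test was possible. Alternatives were centring on the median gene, rescaling after removal of RNA polymerase III, ribosomal RNA and mitochondrial genes, deposited TPM, another pseudocount, no filter, a 3-fold call, and other peak limits. Python 3.11.15, pandas 2.3.3, numpy 2.4.6 and scipy 1.17.1 were used.

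The members and lists were chosen with earlier results of these data known, and the element search with mismatches was chosen after the promoter windows had been seen. Named genes were drawn from the members, the 3 highest and 3 lowest of the other p53 lists with at least 100 counts summed over DMSO, DRB and ActD, and the 3 nearest genes for 4 members. Not every gene under that rule is named, and a further gene is not reported here.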

Additional observations from a re-analysis of the deposited data

How the results depend on the processing

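A count was taken as unchanged within 1.5 times. Leaving out the low-value filter changed none of the members' calls. A pseudocount of 0.25 CPM took BTG2 under DRB to -1.46, so that 6 members were lower there, and TIGAR to -4.18 under DRB and -4.54 under ActD. Centring on the median gene left 3 members lower under DRB with a median of -0.46, 1 lower under ActD with a median of -0.14, and 1 lower in nascent against total RNA. With RNA polymerase III, ribosomal RNA and mitochondrial genes removed, 2 were lower under ActD and 1 under DMSO against untreated nascent RNA, as was 1 in the latter with the pseudocount of 0.25 CPM. A 3-fold call left 1 higher and 1 lower under ActD and 1 lower in nascent against total RNA. On deposited TPM the median of ActD against DRB reversed to -0.0905 and AEN there to -0.57, and 5 members were higher under DMSO than untreated, with a median of 1.83. For peaks, a window of 5 kb gave 1 member with H2A.Z under DRB, and gene bodies alone gave 0 with H2A.Z in siNTC and 3 with acH2A.Z in siMyc. A fold over control of at least 8 left, with H2A.Z, 1 under ActD, 0 in siNTC and 1 in siMyc, and, with acH2A.Z, 4 in siNTC and 2 in siMyc. Apart from the effect of a stricter limit, the cause was not tested. Depth limits CDKN1A, GDF15 and PHLDA3, which were at or near the floor, and TIGAR under the inhibitors. No paired analysis was possible because each group holds 1 library and the labels give no replicate numbers.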

Other observations

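The deposited length of a gene, an average over its transcripts that differed between libraries, shifted for several members. MDM2 had 1581 bases under DMSO, 1556 under DRB and 3811 under ActD, AEN 4071, 563.5 and 5039, and BTG2 1560 under DMSO and 2712 under both inhibitors, while SESN1 had 3509 in all 3. These values describe which annotated transcripts the reads were assigned to and enter TPM but not CPM.

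In the input DNA CDKN1A had 10, 8 and 7 counts under DMSO, DRB and ActD, MDM2 39.6, 50 and 42.7, and AEN 38, 25 and 24. In the same order TIGAR had 7, 18 and 16, FAS 9, 13 and 20, BTG2 8, 7 and 14, and CCNG1 13, 10 and 6.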
